A study of Mus musculus with 14 samples.

Results

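Green cone photoreceptors purified from Opn1mw-GFP mice by sorting for GFP and then sorting again were compared with Nrl-/- photoreceptors, the cone-like cells of a retina that lacks the rod factor Nrl. The members are the 200 bp elements of open chromatin with enough counts in the 4 libraries of these groups, 42732 of the 53204 elements in the deposited count table, by a filter that takes an element with enough counts in the libraries of either group. ATAC-seq, in which a transposase inserts adapters into accessible DNA, was performed on 8 libraries in the series, 2 from each of 4 populations (rods, Nrl-/- photoreceptors, and green cones sorted a single time or again). All came from C57BL/6 mice of 8 weeks. By the study's account, the rods came from mice with the Nrl-eGFP reporter. Green cone replicates 3 and 4 carried the Opn1mw-GFP reporter and were passed through the sorter again, and Nrl-/- replicates 1 and 2 were labelled Nrl-eGFP;NrlKO and were sorted a single time. Genotype, reporter and sorting scheme therefore differ together and cannot be told apart. Retinas were pooled for each sort, the double-sorted pools included a female mouse while the Nrl-/- sorts were male and fewer cells entered the double sorts. The study describes the replicates as biological, each from its own pool of retinas, and p-values measure the spread between these pools. The study's sources differ on the mouse line of single-sorted green cone replicate 1, for which the sample label, Opn1mw-GFP, is used here, so its values may not be of the same population. In bulk libraries, fewer cells of a type and less open chromatin per cell cannot be told apart.

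Mouse cones express a middle-wavelength opsin, Opn1mw, a short-wavelength opsin, Opn1sw, or both, along a dorsal to ventral gradient. Thyroid hormone receptor beta is required for Opn1mw expression, and Ror nuclear receptors act on Opn1sw. Nrl directs photoreceptor precursors to the rod fate, and without it these cells become cone-like and express mostly Opn1sw. The comparison asks where the chromatin of a native cone and of a cone-like cell made by loss of Nrl differs.

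The elements shown here are examples of both directions, of which the Tnik, Pvt1, 1700056E22Rik, Nrl and 1700109G14Rik elements passed the 2-fold test given further on and the Aldh1a3, Notch1 and Opn1sw elements only the test against no change. The element in an intron of Tnik, nearest to the start of the glucose transporter gene Slc2a2, had the lowest p of all. Those in Pvt1 and 102 kb from the start of 1700056E22Rik were also higher in green cones. The element nearest to Aldh1a3, which encodes a retinoic acid synthesizing enzyme, lies 104 kb upstream of its start. It was detected in green cones and had no count in Nrl-/- photoreceptors. The Nrl element lies inside the gene that was knocked out, where absent DNA could also give no counts. The elements of 1700109G14Rik, of Notch1 and upstream of Opn1sw were higher in Nrl-/- photoreceptors. Each is given 5′ to 3′ on the plus strand of GRCm38 (RefSeq), with matches to AGGTCA (a motif bound by many nuclear receptors), TGANTCA (a bZIP site) or TAATTA (a homeodomain site), on either strand, in capitals.
Tnik intron, chr3:28603730-28603929: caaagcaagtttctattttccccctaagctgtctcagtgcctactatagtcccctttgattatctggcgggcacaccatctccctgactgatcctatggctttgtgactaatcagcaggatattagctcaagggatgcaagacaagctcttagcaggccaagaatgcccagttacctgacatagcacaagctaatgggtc
Pvt1 intron, chr15:62092634-62092833: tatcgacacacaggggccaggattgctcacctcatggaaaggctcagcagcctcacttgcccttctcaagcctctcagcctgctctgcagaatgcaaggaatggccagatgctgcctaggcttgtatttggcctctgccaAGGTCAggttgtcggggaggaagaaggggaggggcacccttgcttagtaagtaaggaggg
Between genes near 1700056E22Rik, chr1:183931755-183931954: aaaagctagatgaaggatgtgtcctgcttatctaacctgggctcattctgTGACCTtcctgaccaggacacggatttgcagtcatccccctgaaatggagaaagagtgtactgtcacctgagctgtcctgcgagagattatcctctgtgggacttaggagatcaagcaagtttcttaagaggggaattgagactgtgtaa
Upstream of Aldh1a3, chr7:66531304-66531503: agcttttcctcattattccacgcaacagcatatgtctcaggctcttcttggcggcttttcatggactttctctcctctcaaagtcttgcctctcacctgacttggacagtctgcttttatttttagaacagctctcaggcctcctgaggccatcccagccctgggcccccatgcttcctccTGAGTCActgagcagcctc
Nrl intron, chr14:55521184-55521383: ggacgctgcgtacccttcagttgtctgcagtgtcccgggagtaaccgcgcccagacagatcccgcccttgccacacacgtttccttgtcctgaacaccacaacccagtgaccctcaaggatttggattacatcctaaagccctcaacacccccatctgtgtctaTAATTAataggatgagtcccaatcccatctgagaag
1700109G14Rik intron, chr14:61302340-61302539: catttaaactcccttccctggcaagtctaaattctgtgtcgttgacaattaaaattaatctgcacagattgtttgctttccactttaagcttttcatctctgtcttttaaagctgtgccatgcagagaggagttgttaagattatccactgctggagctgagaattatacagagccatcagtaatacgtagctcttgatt
Notch1 intron, chr2:26500598-26500797: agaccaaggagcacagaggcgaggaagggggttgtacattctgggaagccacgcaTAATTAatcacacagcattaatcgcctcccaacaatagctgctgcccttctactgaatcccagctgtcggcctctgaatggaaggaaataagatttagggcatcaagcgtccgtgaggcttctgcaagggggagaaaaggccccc
Upstream of Opn1sw, chr6:29388127-29388326: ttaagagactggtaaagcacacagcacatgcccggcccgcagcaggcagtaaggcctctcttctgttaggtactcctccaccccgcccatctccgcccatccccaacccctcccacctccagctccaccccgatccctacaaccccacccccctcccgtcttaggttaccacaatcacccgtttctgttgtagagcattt
The Pvt1 and 1700056E22Rik elements each held 1 AGGTCA match, the Aldh1a3 element held 1 TGANTCA match, and the Nrl and Notch1 elements each held 1 TAATTA match. The Tnik, 1700109G14Rik and Opn1sw elements held none of these letters. The elements with matches were picked for display: of the 16 green-higher elements past the 2-fold test, 2 held AGGTCA, 1 held TAATTA and 0 held TGANTCA.

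Counts in elements summed to 1263753 and 1062403 in green cone replicates 3 and 4, and to 2402513 and 4318961 in Nrl-/- replicates 1 and 2. Green cone replicate 3 stood apart from all other cone libraries over long stretches of chromosome. In 1829 windows of 1 Mb, its counts were over 2-fold below the median of the 7 other libraries in 134 windows and over 2-fold above it in 61. Green cone replicate 4 was that low in 2 windows, the single-sorted green cone libraries in 0, and the Nrl-/- libraries in 7 and 9. The rod libraries, which are among the 7 others in that median, were themselves that low in 280 and 309 windows. The longest such stretch lay on chromosome 19 from 3 to 13 Mb, where replicate 3 averaged -2.07 on the log2 scale and replicate 4 averaged -0.01. Low windows made up 29.3% of those on chromosome 7, 26.2% on chromosome 17 and 25.5% on chromosome 19. Log2 levels across tested elements correlated at 0.696 between replicates 3 and 4 and at 0.926 between the Nrl-/- libraries. Replicate 4 correlated at 0.834 with single-sorted green cone replicate 1 and at 0.714 with Nrl-/- replicate 2. For replicate 3 the correlations with those 2 libraries were 0.743 and 0.659. Replicate 3 also had 0 counts at all 5 elements of the single-copy Y genes Eif2s3y, Uty and Ddx3y, where replicate 4 had 0 to 10 and the Nrl-/- libraries 4 to 38. At 2 other Y elements, nearest to G530011O06Rik, replicate 3 had 22 and 14 counts, replicate 4 had 34 and 22, and the Nrl-/- libraries 2 to 10. Both were higher in green cones against no change (adjusted p = 0.0419 and 0.0672, edgeR), 2 of 7 tested Y elements against 1.99% of all tested elements. The share of counts on chromosome X in replicate 3 was 1.04%, below the 1.27% of replicate 4 and the 1.27% and 1.23% of the Nrl-/- libraries. The part of these stretches in the results was examined by leaving out replicate 3, by leaving out the low windows, and by setting each element against its surroundings, the last 2 chosen after the data were seen, and the cause was not tested.

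**Figure D1:**
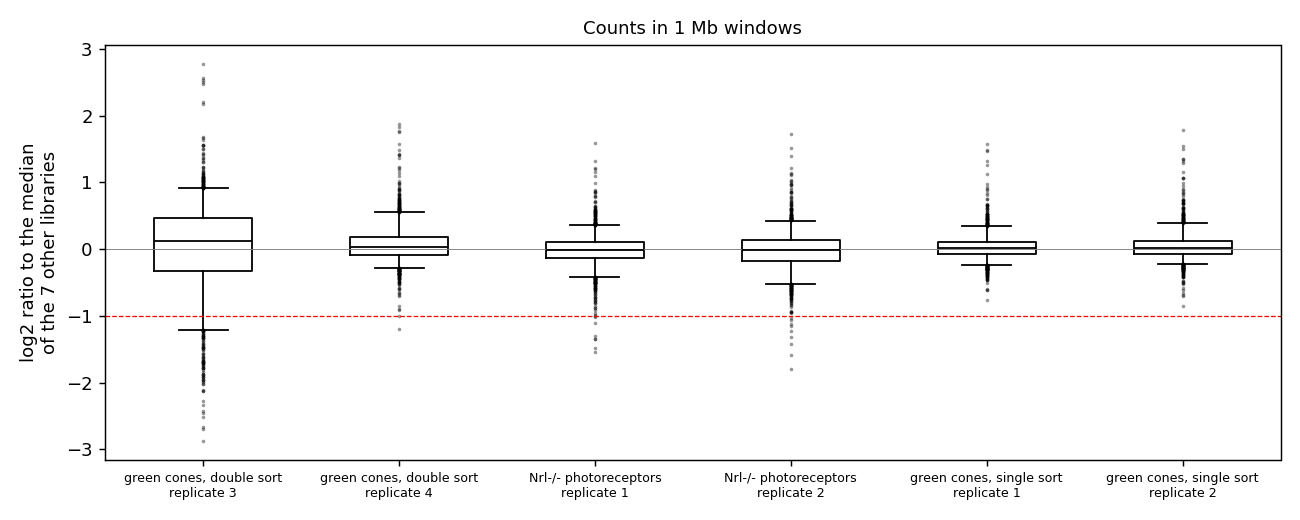
Log2 ratio of the counts in each of 1829 windows of 1 Mb to the median of the 7 other ATAC libraries, by library. Boxes span the quartiles, whiskers the 5th to 95th percentile, points are single windows outside the whiskers and the dashed line marks a 2-fold deficit. Green cone replicate 3 has 134 windows below the line, against 0 to 9 in the 5 other libraries shown.

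Opsin elements were examined as a check of the labels. At the Opn1mw promoter, CPM (counts scaled to a common library size, by TMM over the 8 ATAC libraries) were 8.95 and 23.2 in green cone replicates 3 and 4, 6.37 and 4.86 in Nrl-/- photoreceptors, and 0.439 and 0 in rods. Green cones were thus higher in both libraries at this element, by a log2 fold change of 1.5 ± 0.59 (SE), but the difference was not past the threshold (adjusted p = 0.25, edgeR). The element lies in a window that was low in replicate 3. Elements 3.82 and 3.5 kb upstream went the other way, with log2 fold changes of -0.78 and -0.3, neither called. Summed over the Opn1mw locus the groups overlapped, at 26.9 and 54.8 CPM in green cones against 31.8 and 35.4 CPM (adjusted p = 0.818, edgeR). At the Opn1sw promoter, green cones had 9.77 and 52.9 CPM, Nrl-/- photoreceptors 45.4 and 42.4 CPM and rods 1.98 and 1.19 CPM. The 2 green cone libraries lay on either side of the Nrl-/- libraries there, so no difference could be shown. An element 7.71 kb upstream of Opn1sw had 0 and 1.86 CPM in green cones against 11 and 14.8 CPM in Nrl-/- cells. The ratio of its summed counts was 15.5 (95% exact counting interval 4.18 to 130, adjusted p = 0.0815 in edgeR and 0.195 in DESeq2, where the call is lost), and single-sorted green cones had 1.54 and 1.93 CPM. RNA of Opn1sw, measured only in rods and Nrl-/- photoreceptors, stood at 60830, 67596 and 64496 CPM in the latter and at 400, 354 and 375 CPM in rods. Opn1mw RNA was also higher in Nrl-/- photoreceptors, at 2256, 2620 and 2989 CPM against 26.6, 26.7 and 26.6 CPM in rods.

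Against a log2 fold change of 1, 16 elements were higher in green cones (0.0374% of those tested) and 1 in Nrl-/- photoreceptors (0.00234%) at an adjusted p under 0.1. These counts sat on a step: 14 of the 17 had an adjusted p of 0.09 or more, the largest was 0.0991, and 94 further elements lay between 0.1 and 0.11. Against no change, 852 elements were higher in green cones (1.99%) and 451 in Nrl-/- photoreceptors (1.06%), and in every one of these the groups did not overlap. Over all tested elements the groups did not overlap in 9823 with green cones higher and in 10090 with Nrl-/- photoreceptors higher. With 2 libraries a group, no exact permutation test of a single element can give a two-sided p below 0.333, so the calls rest on the spread shared across elements. Without green cone replicate 3, 599 of the 852 and 451 of the 451 stayed called, 140 of the 852 fell below the count filter and 0 changed direction. There, 2320 and 3317 elements were called in all, and without replicate 4 the counts were 6124 and 7354, so the excess of green-higher calls turned around without either green cone library. Past the 2-fold test it turned likewise, to 306 and 652 without replicate 3 and 1390 and 1801 without replicate 4. Without Nrl-/- replicate 1, 164 and 59 elements were called against no change, and without Nrl-/- replicate 2 the counts were 116 and 25. In each fit without 1 replicate, a lone library is assumed to vary like the other group, so calls kept there cannot show whether they hold. With each element set against those within 2.5 Mb on either side, 820 and 424 stayed called, of 1479 and 974 calls in all. With the low windows left out, 1555 and 941 elements were called. The windows low in replicate 3 held 7.7% of tested elements, 0.235% of the green-higher ones and 8.87% of the Nrl-/- higher ones.

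The elements past the 2-fold test that were higher in green cones were mostly near silent in Nrl-/- photoreceptors and in rods. The Tnik intron element had 61.9 and 48.3 CPM in green cones against 1.70 and 1.62 CPM in Nrl-/- cells, a log2 fold change of 5.0 ± 0.44 (adjusted p = 0.048 against a log2 fold change of 1). It had 35.7 and 35.7 CPM in single-sorted green cones, which did not enter the test, and 0.439 and 0 CPM in rods. The promoter of the noncoding RNA gene 4930434J06Rik had 79.8 and 83.6 CPM in green cones against 7.64 and 5.33 CPM (log2 fold change 3.66 ± 0.34, adjusted p = 0.0713). Both elements stood clear of every Nrl-/- and rod library in each green cone library. The promoter of Fzd10os, antisense to the Wnt receptor gene Fzd10, had 43.1 and 35.3 CPM against 1.70 and 1.62 CPM. The promoter of Il9r, the interleukin 9 receptor, had 26.9 and 28.8 CPM against 0.849 and 0.463 CPM. An intronic element of Pvt1, a long noncoding RNA gene beside Myc, had 30.9 and 29.7 CPM against 0.849 and 1.16 CPM. These 3 differences came to log2 fold changes of 4.51 ± 0.47, 5.38 ± 0.61 and 4.78 ± 0.54, and rods had at most 0.439 CPM at any of them.

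The remaining green-higher elements lay mostly in introns. In Vgll4, a cofactor of TEAD factors, an intronic element had 39.9 and 51.1 CPM against 3.40 and 2.78 CPM. One in Cand2 had 65.1 and 63.2 CPM against 9.34 and 7.18 CPM, and one in Csmd1 had 65.1 and 68.7 CPM against 5.94 and 9.50 CPM. The Csmd1 element was lost from the 2-fold test under the regional offset, where its log2 fold change was 1.84 instead of 3.05 (adjusted p = 0.149). In Nos1ap, an adaptor of neuronal nitric oxide synthase and nearest to the start of Spata46, the element had 74.1 and 41.8 CPM against 5.94 and 3.01 CPM. The elements in a coding exon of Gm15413 and Tenm4, between genes near 1700056E22Rik and near Ercc4, and in introns of Dlgap1 and of Rab11fip5 (nearest to the start of Sfxn5) were also called, with log2 fold changes of 3.47 to 6.06. An element of Fam189a1 had 21.2 and 14.9 CPM against 0 and 0, at least 18.3-fold higher on a limit of 3 counts per Nrl-/- library. In single-sorted green cones all of these elements lay between 4.34 and 50.6 CPM, and each of them was above both Nrl-/- libraries. Rods had at most 1.59 CPM at each of the elements of this paragraph.

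**Figure D2:**
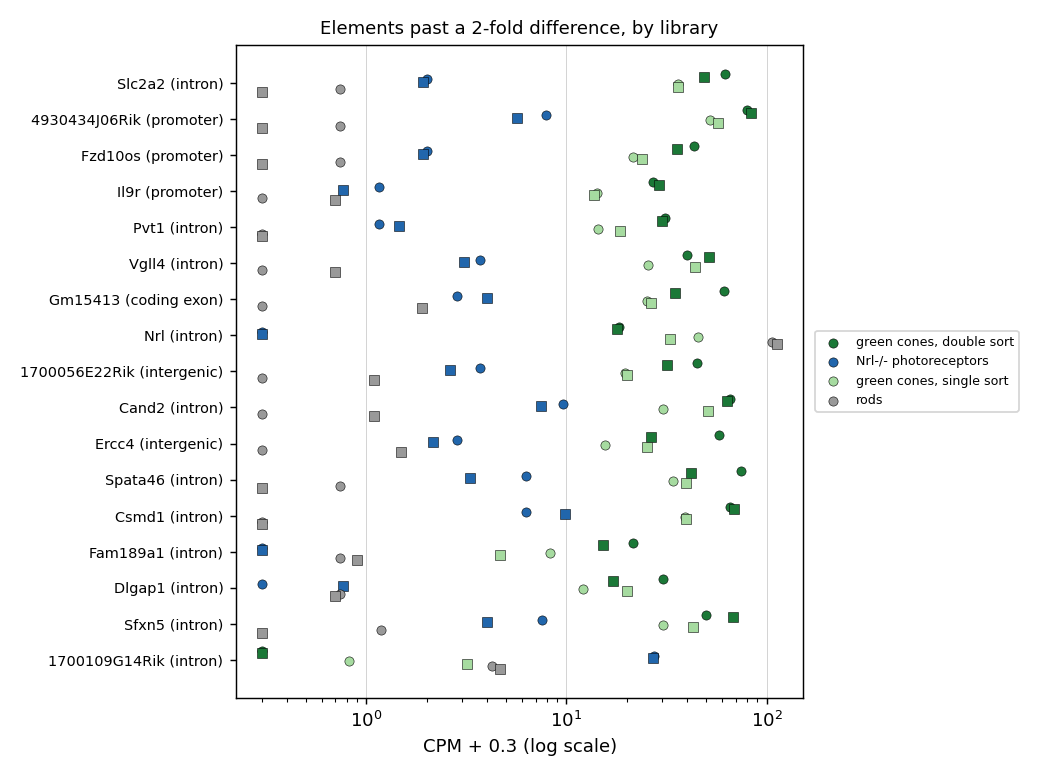
CPM plus 0.3 on a log scale at the 17 elements past the 2-fold test, by nearest gene, in each of the 8 ATAC libraries. Circles are replicates 1 or 3 and squares replicates 2 or 4. Double-sorted green cones lie to the right of the Nrl-/- photoreceptors in 16 rows, and rods lie at 1.59 CPM or less in all of those but the Nrl intron.

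At the Nrl locus the elements moved in both directions. The intronic element inside the deleted gene had 17.9 and 17.6 CPM in green cones, no count in either Nrl-/- library and 106 and 113 CPM in rods, and was at least 18.1-fold higher in green cones. The 3 other tested elements of Nrl were higher in Nrl-/- photoreceptors against no change. The promoter element had 6.51 and 22.3 CPM in green cones against 129 and 95.4 CPM (log2 fold change -2.99 ± 0.45, adjusted p = 0.0419), with 260 and 267 CPM in rods. A further promoter element had 3.26 and 7.43 CPM against 30.6 and 20.2 CPM (adjusted p = 0.0823), and one 1.89 kb upstream had 3.26 and 7.43 CPM against 25.5 and 25.0 CPM (adjusted p = 0.0716). DESeq2 called the first of these promoter elements and neither of the others (adjusted p = 0.153 and 0.142). In the same order, single-sorted green cones had 45.8 and 28 CPM, 11.6 and 8.68 CPM, and 24.2 and 20.7 CPM. With those libraries in place of the double-sorted ones, the log2 fold changes were -1.57, -1.3 and -0.2. The Nrl-/- mice carry the Nrl-eGFP reporter, as did the mice of the rods. In both, reads of any Nrl sequence in that reporter cannot be told apart from those of the gene.

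The single element past the 2-fold test that was higher in Nrl-/- photoreceptors lay in an intron of 1700109G14Rik. It had 27.2 and 26.9 CPM there, 0 and 0 in green cones, 0.514 and 2.89 CPM in single-sorted green cones, with 3.95 and 4.37 CPM in rods, and was at least 10.3-fold higher. The next elements in this direction had adjusted p = 0.102 in that test and were called only against no change. An intronic element of the ephrin receptor gene Epha8 had 39.5 and 37.5 CPM against 3.26 and 1.86 CPM in green cones. The Nav2 promoter had 32.7 and 28.7 CPM against 1.63 and 1.86 CPM, an element upstream of the keratin gene Krt86 had 28.4 and 34.5 CPM against 1.63 and 0 CPM, and one in an intron of Osbpl6 (nearest to the start of Prkra) had 28.0 and 29.2 CPM against 1.63 and 1.86 CPM. A promoter element of Ppara, a nuclear receptor of fatty acids, had 71.3 and 64.4 CPM against 11.4 and 5.57 CPM. All 5 were lower in both double-sorted green cone libraries than in either Nrl-/- library. Their levels in rods ranged from 5.49 and 5.37 CPM at Krt86 to 39.1 and 43.1 CPM at Ppara, with 17.3 and 14.5 CPM in Osbpl6, 18.2 and 17.7 CPM at Epha8 and 31.2 and 22.7 CPM at Nav2. Single-sorted green cones had 14.4 and 9.16 CPM at Nav2, and with those libraries in place of the double-sorted ones its log2 fold change was -1.36 instead of -4.12 (adjusted p = 0.492). At Epha8 they had 7.71 and 13 CPM, at Krt86 4.11 and 2.89 CPM, in Osbpl6 5.14 and 3.86 CPM and at Ppara 17.2 and 10.1 CPM.

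Summed over the elements of each gene within 100 kb, 14 loci were higher in green cones (0.0917% of 15268) and 3 in Nrl-/- photoreceptors (0.0196%). Fam189a1 had the lowest p. Its 8 elements, each called against no change on its own, summed to 138 and 87.3 CPM in green cones against 5.09 and 6.02 CPM (log2 fold change 4.36 ± 0.39, adjusted p = 0.0407), with 61.2 and 57.9 CPM in single-sorted green cones, with 1.76 and 1.39 CPM in rods. Rgs4, a regulator of G protein signalling, had 76.5 and 52.9 CPM against 2.12 and 6.02 CPM, and Iyd, an iodotyrosine deiodinase that recycles iodide in the thyroid, had 52.1 and 44.6 CPM against 5.94 and 6.72 CPM. Glb1l2 differed from the other green-higher loci in being open in rods, with 282 and 292 CPM, against 164 and 158 CPM in green cones against 55.2 and 45.2 CPM in Nrl-/- cells. Its RNA was 870, 726 and 815 CPM in rods, compared with 8.71, 8.82 and 10.6 CPM in Nrl-/- cells.

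The 3 loci higher in Nrl-/- photoreceptors were Ppara, Epha8 and Notch1. Notch1, which encodes a receptor that holds progenitors undifferentiated, had 62.7 and 43.7 CPM in green cones, 210 and 195 CPM in Nrl-/- cells and 25.2 and 29.8 CPM in rods over 4 elements (log2 fold change -1.87 ± 0.25, adjusted p = 0.0996). Epha8 had 28.5 and 35.3 CPM against 149 and 131 CPM, and its RNA was 20, 19.3 and 17.7 CPM in Nrl-/- cells and at most 0.144 CPM in rods. Ppara had 27.7 and 24.1 CPM against 153 and 136 CPM, and rods had 116 and 130 CPM. Ppara RNA was lower in Nrl-/- cells, at 28.3, 15 and 12.8 CPM, than in rods, at 86.5, 62.6 and 72 CPM. Notch1 RNA was 90.4, 64.6 and 47.6 CPM in Nrl-/- cells and 28.9, 26.4 and 36.1 CPM in rods. RNA of green cones was not measured. Without green cone replicate 3, the log2 fold changes were 3.96 at Fam189a1, -2.54 at Ppara, -1.95 at Epha8 and -2.18 at Notch1. In that fit the lone green cone library is assumed to vary like the Nrl-/- ones, so it cannot show whether the calls hold. In windows of 1 Mb, 0% of 2128 (0 windows) were called in either direction by edgeR (lowest adjusted p = 0.212), with 156 and 65 at an unadjusted p under 0.05, while DESeq2 called 50 and 5, and edgeR called 384 and 393 without green cone replicate 3.

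**Figure D3:**
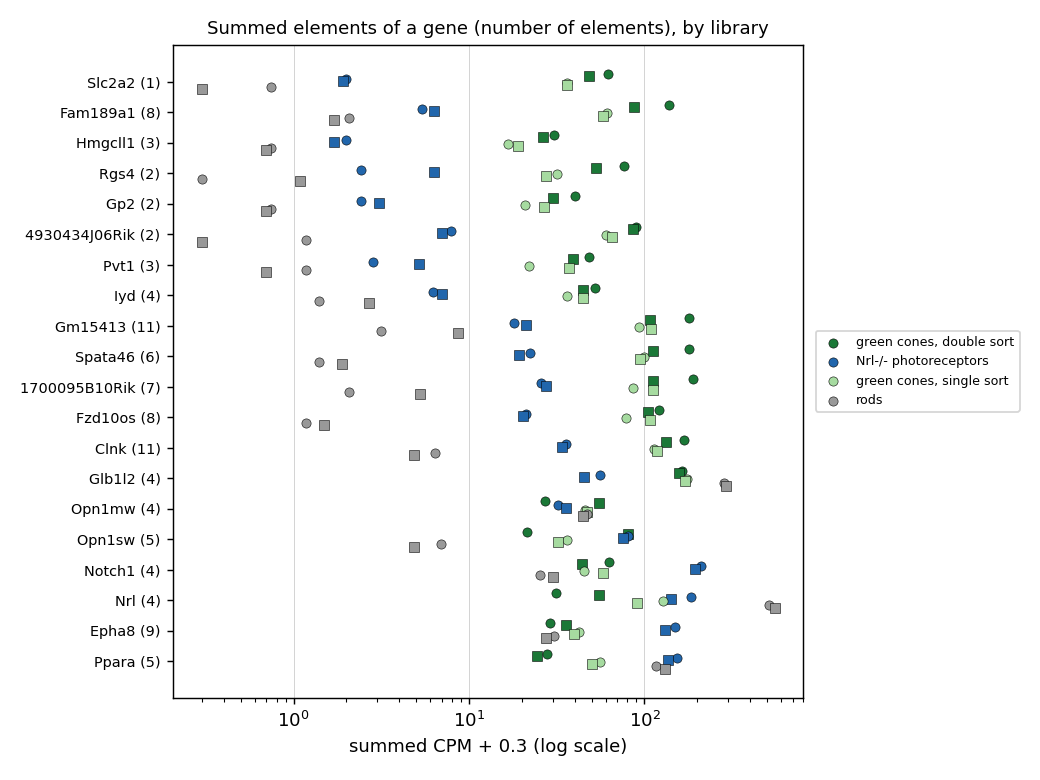
Summed CPM plus 0.3 on a log scale over the elements of a gene within 100 kb, for the 17 loci called and for Nrl, Opn1mw and Opn1sw, in each of the 8 ATAC libraries. The number of elements is in brackets. Rods lie to the left of the Nrl-/- photoreceptors in 13 of the 14 loci higher in green cones, and reach 282 and 292 CPM at Glb1l2.

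The elements called against no change are described here by their level in rods, which took no part in the test, and these shares were not tested. In the 852 green-higher elements the median was 20.4 and 14.9 CPM in double-sorted green cones, 10.3 and 12.1 CPM in single-sorted green cones, 2.12 and 2.32 CPM in Nrl-/- cells and 0.439 and 0.398 CPM in rods. In the 451 Nrl-/- higher elements it was 1.63 and 1.86 CPM, 5.91 and 5.79 CPM, 16.6 and 17.6 CPM, and 7.02 and 7.95 CPM, in the same order. Rods were under 2 CPM at 668 green-higher elements (78.4%), at 128 Nrl-/- higher elements (28.4%) and at 18.8% of all tested elements. Of elements under 2 CPM in rods, 8.3% were higher in green cones and 1.59% in Nrl-/- photoreceptors, whereas of elements over 20 CPM in rods the shares were 0.191% and 0.843%. Promoters made up 5.75% of green-higher, 14.6% of Nrl-/- higher and 30.3% of all tested elements. The median distance to the nearest start site was 35.1 kb, 18.4 kb and 6.61 kb.

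**Figure D4:**
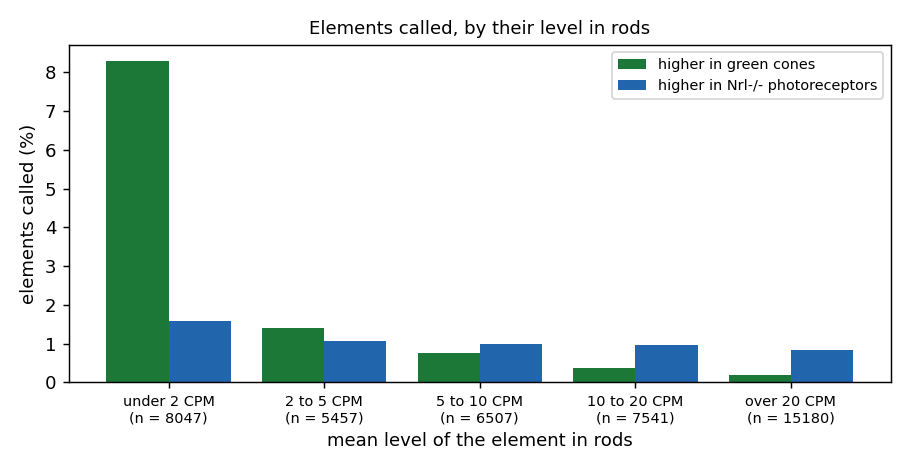
Share of tested elements called against no change, in percent, by the mean level of the element in rods, with the number tested in each class. Green-higher calls fall from 8.3% in the class under 2 CPM to 0.191% in the class over 20 CPM, while Nrl-/- higher calls stay between 0.843% and 1.59%.

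Elements of the called sets that held a short sequence motif on either strand were counted, as a description with no test. AGGTCA was present in 275 green-higher elements (32.3%), in 78 Nrl-/- higher elements (17.3%) and in 14.1% of all tested elements. TGANTCA was present in 137 (16.1%), in 26 (5.76%) and in 5.71%. TAATTA showed the opposite order, with 42 green-higher elements (4.93%), 82 Nrl-/- higher elements (18.2%) and 4.45% of all. CTAATCC, the site of photoreceptor homeodomain factors such as Crx, was in 12.1%, 9.76% and 7.59%. GATAA was in 30.5% of green-higher, 38.1% of Nrl-/- higher and 20.6% of all tested elements. The CTCF core motif was in 0.704%, 0.443% and 3.47%. Among elements in introns and between genes alone, AGGTCA was in 33.5% of 777 green-higher, 18.1% of 365 Nrl-/- higher and 18% of 26246 tested elements, and TAATTA was in 5.28%, 20.5% and 6.55%. A match is a run of letters in the reference, and binding was not measured.

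Base composition moved with the Nrl-/- higher set, whose median GC was 45.5% against 50.5% in the green-higher set and 54.5% over all tested elements. Of elements with a GC of 40% or less, 7.64% were higher in Nrl-/- photoreceptors and 0.921% in green cones. With GC of 50% or less, TAATTA was in 22.0% of 295 Nrl-/- higher elements in introns and between genes and in 10.6% of 12814 tested ones, and with GC over 50% in 14.3% of 70 and in 2.67% of 13432. With a GC offset for each library, 790 and 368 elements were called against no change, and 3 and 0 against a log2 fold change of 1.

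**Figure D5:**
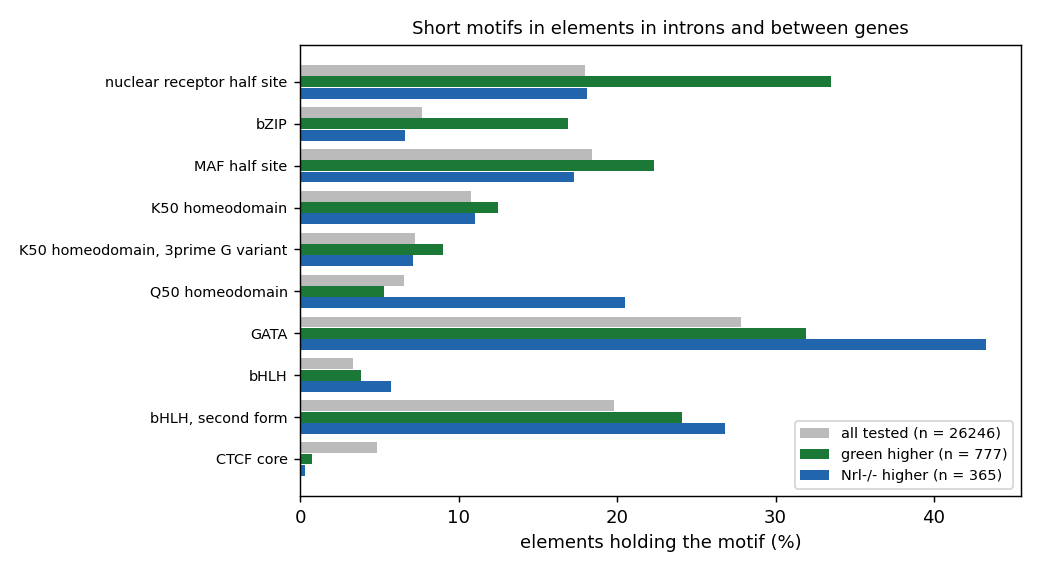
Share of elements in introns and between genes that hold each short motif, in percent, for all tested elements (n = 26246), green-higher elements (n = 777) and Nrl-/- higher elements (n = 365). The nuclear receptor motif AGGTCA stands at 33.5% in green-higher elements and the Q50 homeodomain motif TAATTA at 20.5% in Nrl-/- higher elements.

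Genes of known pathways were counted by their nearest elements against no change. Over all 42732 elements the median log2 fold change was -0.04, and 1.99% and 1.06% were called. Of 84 elements of cone opsin and phototransduction genes, 1 was higher in green cones, 1 was higher in Nrl-/- photoreceptors and 82 were not called (median -0.41), while DESeq2 called 0. The list summed to 1339 CPM in green cone replicate 3, which stood apart, and to 2048 CPM in replicate 4, against 2127 and 2071 CPM in the Nrl-/- libraries. The element higher in green cones lay in an intron of Cnga3, the cone channel subunit, with 27.7 and 40.9 CPM against 12.7 and 8.34 CPM (adjusted p = 0.089). Of 175 elements of cone identity and opsin-choice factors, 4 were higher in green cones, all near Aldh1a3 and Sall1, 2 were higher in Nrl-/- photoreceptors, near Otx2 and Rorb, and 169 were not called (median -0.04). DESeq2 called 4 in green cones and 0 in the other direction. An element 104 kb upstream of Aldh1a3 had 8.95 and 8.36 CPM in green cones and no count in either Nrl-/- library. It was at least 8.81-fold higher (adjusted p = 0.0493 in edgeR), and fell below the count filter without replicate 3. One 256 kb upstream of the zinc finger factor gene Sall1 had 21.2 and 9.29 CPM against 0.849 and 0.927 CPM (adjusted p = 0.0498), a call lost without replicate 3 (adjusted p = 0.108). An element 53.6 kb from the photoreceptor factor gene Otx2 had 7.33 and 10.2 CPM against 32.7 and 32.2 CPM, with 67.6 and 72.6 CPM in rods (adjusted p = 0.0673 in edgeR and 0.137 in DESeq2). Single-sorted green cones had 31.6 and 26 CPM at this element. With those libraries in place of the double-sorted ones, its log2 fold change was -0.2 instead of -1.91.

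Of 58 elements of rod identity factors, 1 was higher in green cones and 3 in Nrl-/- photoreceptors, all of Nrl itself (median -0.32), and DESeq2 called 1 and 1. Of 79 elements of rod phototransduction and outer segment genes, 0 were higher in green cones, 1 was higher in Nrl-/- photoreceptors and 78 were not called (median -0.19), while DESeq2 called 0 and an unadjusted p under 0.05 held for 2 and 8. That element is the promoter of Pde6a, the rod phosphodiesterase subunit, with 17.1 and 9.29 CPM against 42.0 and 38.7 CPM and 83.4 and 96.4 CPM in rods. Single-sorted green cones had 36.8 and 38.1 CPM at that promoter. With those libraries in place of the double-sorted ones, its log2 fold change was -0.15 instead of -1.61. Summed over all elements of this rod list, CPM came to 1234 and 1597 in double-sorted green cones, 1619 and 1633 in Nrl-/- photoreceptors, 2320 and 2070 in single-sorted green cones, with 4531 and 4674 in rods. Of 50 elements of nuclear lamina genes, edgeR and DESeq2 called 0, with 1 in each direction at an unadjusted p under 0.05. Of 123 elements of photoreceptor synapse genes both tools called 0, with 7 higher in green cones and 9 in Nrl-/- photoreceptors at that level, and of 24 elements of X inactivation and Y-linked genes none reached it. Of 134 elements of immediate early and AP-1 genes, 1 near Egr1 was higher in green cones and 1 near Nr4a1 in Nrl-/- photoreceptors, the latter lost in DESeq2 (adjusted p = 0.148).

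Markers of other retinal cells were counted in the same way. Of 39 elements of amacrine and horizontal markers, 3 were higher in green cones, near Calb2, Meis2 and Pax6, and 0 were higher in Nrl-/- photoreceptors (median 0.21). The list summed to 729 and 630 CPM in green cones against 540 and 554 CPM in Nrl-/- cells. Of 55 elements of Muller glia and astrocyte markers, 2 were higher in green cones and 4 in Nrl-/- photoreceptors, of which 3 belong to Notch1, and the list summed to 1313 and 1054 CPM against 1185 and 1198 CPM. Of 46 elements of bipolar markers 0 and 1 were called, and sums were 755 and 609 CPM against 751 and 820 CPM. Of 28 elements of ganglion cell markers 1 and 0 were called, and of 31 elements of microglia, endothelial and pigment epithelium markers 2 and 0, both near Mitf. Ganglion cell sums were 401 and 298 CPM against 339 and 337 CPM, and those of the last list 724 and 593 CPM against 662 and 668 CPM. Of 15 elements of homeobox cluster and Polycomb target genes, 1 near Gata4 was higher in green cones. DESeq2 lost the calls near Gata4, Eomes (ganglion cells), Prkca (bipolar cells) and Pax6 and 1 of the 2 near Mitf, with adjusted p of 0.126 to 0.301. Of the Muller glia and astrocyte elements, DESeq2 called 1 and 3. Open chromatin at a marker gene is not its expression, and the part of other cells in the called elements was not tested.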

How the data were processed

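The authors aligned ATAC-seq reads to GRCm38/mm10 (the submitters' processing notes name Bowtie2 2.2.3, Picard 1.121, SAMtools 1.3, HOMER 4.8, MACS2 2.1.0 and bedtools 2.24.0), kept short fragments, and deposited counts of reads in 53204 elements of 200 bp merged from the peaks of each cell type. Deposited counts were mostly even because both mates were counted, with 21.8% to 30.7% odd values in the 4 libraries compared, so a fragment counts as more than 1 and counting intervals are too narrow. Peak lists deposited by the authors, pooled per cell type with a fold enrichment ratio, held 36015 green cone, 41346 Nrl-/- and 29265 rod peaks and served only as annotation. Deposited RNA counts (rods and Nrl-/- photoreceptors) were scaled to CPM without the 41.3% to 49.2% of reads not assigned to a gene. Columns matching no sample numbered 0.

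Elements were filtered with filterByExpr, scaled by TMM and tested in edgeR 4.0.16 (R 4.3.3) with quasi-likelihood fits, glmTreat against a log2 fold change of 1 and glmQLFTest against no change, at a Benjamini-Hochberg adjusted p of 0.1 over all elements. An element with reads only in its higher group can pass the filter through that group. SE is the absolute log2 fold change divided by the square root of F. Loci sum elements within 100 kb of a gene's start, and windows span 1 Mb. Promoters run from 1000 bp upstream to 100 bp downstream of a RefSeq start. Fold limits use 3 counts per library and cover counting error only. DESeq2 1.42.0 was an alternative, beside other scalings, filters, a GC offset, thinning, other library choices and leaving out each replicate. Tables used Python 3.11.15, pandas 2.3.3 and scipy 1.17.1, and the fits were tested on simulated data.

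Named elements are those past the 2-fold test, the 10 with the lowest p in each direction, all of Nrl, Opn1mw and Opn1sw, and up to 4 with the lowest p from each gene list. Named loci are the 10 with the lowest p in each direction and every locus called. The comparison and the gene lists were chosen with earlier results of these data known.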

Additional observations from a re-analysis of the deposited data

How the results depend on the processing

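Counts are given as higher in green cones and higher in Nrl-/- photoreceptors. Past a log2 fold change of 1, the 16 and 1 elements became 90 and 15 with DESeq2 size factors, 98 and 25 without the low-count filter, 3 and 0 with a GC offset, 399 and 186 with all 8 libraries in the fit, 927 and 522 with single-sorted green cones in place of double-sorted ones, 2 and 0 after thinning to the smallest total, and 35 and 2 in DESeq2. They became 297 and 144 with a regional offset and 364 and 150 without the windows low in green cone replicate 3, both chosen after the data were seen. Against no change, the 852 and 451 elements became 512 and 152 in DESeq2, 1479 and 974 with the regional offset and 1555 and 941 without the low windows. Loci went from 14 and 3 to 160 and 30, and windows from 0 and 0 to 50 and 5, in DESeq2. Leaving out each replicate in turn gave 57 to 1390 and 7 to 1801 elements past a log2 fold change of 1, 116 to 6124 and 25 to 7354 elements against no change, 10 to 3208 and 2 to 3535 loci, and 0 to 610 and 0 to 654 windows. The highest counts came without green cone replicate 4. In each fit without 1 replicate, a lone library is assumed to vary like the other group, so calls kept there cannot show whether they hold. Of the 17 elements past the 2-fold test, 17 stayed called without either green cone replicate, 15 without Nrl-/- replicate 1, 12 without Nrl-/- replicate 2, 16 with the regional offset, 3 with the GC offset and 2 after thinning, and 0 changed direction in any alternative. The cause of these changes was not tested. No paired analysis was possible because the groups compared came from different mice, and the labels link no green cone library to an Nrl-/- library. Totals of 1062403 to 4318961 counts limit what can be shown, and in green cones 3 counts correspond to 2.44 and 2.79 CPM.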
